A study of Mus musculus with 8 samples.

Results

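Hemoglobin and red cell genes were followed in ventricles of mouse embryos at embryonic day 15.5 (E15.5). The 9 genes were taken by symbol from the 53465 genes of a deposited count table. They were the adult alpha-globins Hba-a1 and Hba-a2, the embryonic alpha-like globin Hba-x, the adult beta-globins Hbb-bs and Hbb-bt, the embryonic beta-like globins Hbb-y and Hbb-bh1, the heme synthesis enzyme gene Alas2 and the anion exchanger gene Slc4a1. All 9 passed the filter on low counts and were among the 15388 genes tested. There were 4 wild-type (WT) libraries and 4 libraries labeled Nrg-1flox;Cdh5-CreERT2, all of polyadenylated RNA from heart ventricles and read as single reads of 60 bases. In the labeled genotype a tamoxifen-inducible Cre recombinase is driven by the promoter of the endothelial gene Cdh5. It is meant to remove a floxed stretch of Nrg1 (neuregulin-1) from endothelial cells. Which cells recombined was not tested. The strain, the zygosity of the floxed allele, the tamoxifen schedule and whether WT embryos received it are not given in the sources used here.

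The targeted gene was checked first. Nrg1 was at 5.45, 4.63, 4.08 and 5.31 CPM (counts scaled to a common library size, as counts per 1e6) across WT libraries 1 to 4, and at 6.82, 6.33, 6.15 and 5.35 CPM in the libraries labeled mutant. The level was not lower in the latter (log2 fold change 0.34, 95% confidence interval 0.08 to 0.60, edgeR quasi-likelihood test, adjusted p = 0.311). A gene-level count includes reads from other cells and from outside a floxed stretch, so it does not check the deletion. The second group is therefore named by its label, as labeled-mutant libraries. Library totals ran from 16761763 to 24144272 expected counts. The ventricular genes Myh7 (17719 CPM), Actc1 (11382 CPM) and Tnnt2 (5556 CPM) were high, as means of the 8 libraries. The series describes 1 ventricle per replicate, yet both Xist and Y-linked genes exceeded 20 counts in 7 of the 8 libraries, and where these came from was not tested. P-values measure only the spread between these libraries.

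Hemoglobin is a tetramer of alpha-like and beta-like chains, each holding a heme group. In the mouse embryo the first, primitive red cells arise in the yolk sac and make embryonic globins, and definitive red cells, made next in the fetal liver, carry adult globins. Both kinds circulate together at mid-gestation while definitive cells take over, so blood that remains in a dissected heart brings both sets of transcripts with it.

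The members lie in 2 globin clusters and at 2 other loci (GRCm38). The alpha-like genes follow each other on chromosome 11 on the plus strand, with Hba-x at chr11:32276400-32278116, Hba-a1 at chr11:32283511-32284465 and Hba-a2 at chr11:32296489-32297298. The beta-like genes lie on the minus strand of chromosome 7, with Hbb-y at chr7:103851749-103853216, Hbb-bh1 at chr7:103841637-103843164, Hbb-bs at chr7:103826534-103828096 and Hbb-bt at chr7:103812524-103813996. Slc4a1 is at chr11:102348824-102366203 on the minus strand, and Alas2 at chrX:150547375-150570638 on the plus strand.

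Sequence before the RefSeq start is shown for the main adult and the main embryonic beta-like gene, because Hbb-bs and Hbb-y ran differently across libraries. The stretches come from RefSeq on GRCm38.p6, at chr7:103827929-103828011 (minus strand) for Hbb-bs and chr7:103853217-103853327 (minus strand) for Hbb-y. They are the part of the 120 bases before the RefSeq start that lies outside the untranslated exons of GENCODE M21, whose gene starts differ from those of RefSeq. Capitals mark matches on either strand to short motifs of erythroid promoters, namely TATAA of the basal promoter, CCAAT of the box of that name, the CACCC motif that Klf1 can bind, and GATAA bound by GATA factors.
Hbb-bs: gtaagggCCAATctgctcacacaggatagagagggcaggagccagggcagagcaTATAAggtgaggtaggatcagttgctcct
Hbb-y: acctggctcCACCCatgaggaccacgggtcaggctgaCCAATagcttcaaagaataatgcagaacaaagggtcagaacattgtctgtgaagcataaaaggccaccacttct
Over the whole 120 bases, the adult genes Hbb-bs, Hbb-bt, Hba-a1 and Hba-a2 each held TATAA together with CCAAT and with CACCC. So did 0.689% of 32817 promoter windows of this length. The CACCC match of Hbb-bs lay 90 bases before the start, outside the stretch shown. Hba-x had no CCAAT match and Hbb-y no TATAA match in these windows. Singly, TATAA was found in 11.9%, CCAAT in 21.3%, CACCC in 31.7% and GATAA in 10.5% of all windows. A match is a description of letters, not evidence of a bound factor.

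The adult copies are nearly the same gene. The coding sequences of Hba-a1 and Hba-a2 differed at 1 of 426 bases (C381T, Hba-a1 base first, counted from the first coding base), and those of Hbb-bs and Hbb-bt at 1 of 441 bases (C417T, Hbb-bs base first). The coding stretches around both differences, from GENCODE M21 transcripts, show how little separates the copies, with the differing base in capitals.
Hba-a1: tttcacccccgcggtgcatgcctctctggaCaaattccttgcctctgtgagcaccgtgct
Hba-a2: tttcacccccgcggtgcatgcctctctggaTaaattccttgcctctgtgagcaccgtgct
Hbb-bs: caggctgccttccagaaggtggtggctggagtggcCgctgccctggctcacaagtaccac
Hbb-bt: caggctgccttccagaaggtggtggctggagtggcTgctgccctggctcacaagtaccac
Of all 60-base windows in the transcript, 84.6% for Hba-a2, 65.5% for Hba-a1, 65.2% for Hbb-bs and 57.6% for Hbb-bt also occurred in the partner gene. Reads from such stretches are divided between copies by estimation, so the single values of these 4 genes are uncertain while the sum over a pair is not affected by this division. Hba-x, Hbb-y, Hbb-bh1 and Slc4a1 shared no such window with another gene, and Alas2 shared 12.9%, with Apex2 and Mir3620. The embryonic genes are more distant relatives, with 74.4% of coding positions identical between Hbb-bs and Hbb-y and 61.7% between Hba-a1 and Hba-x.

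The adult globins were among the abundant transcripts of these ventricles. Values per length used the GENCODE transcript, which for some members, among them Hba-a1, Hba-x and Hbb-bt, starts before the RefSeq one. By this length the cardiac actin gene Actc1 averaged 7727 CPM per kb over the 8 libraries. In the same libraries Hba-a2 averaged 4425 CPM per kb and Hbb-bs 4024 CPM per kb. Hba-a1 (1368 CPM per kb) and Hbb-bt (1360 CPM per kb) followed, and then Hbb-y (43.9), Alas2 (30.8), Hba-x (14.3), Slc4a1 (3.39) and Hbb-bh1 (1.31 CPM per kb). The ranges of Hba-a2 and Hbb-bs over libraries overlapped, as did those of Hba-a1 and Hbb-bt, of Hbb-y and Alas2, and of Alas2 and Hba-x.

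In WT libraries 1 to 4, Hba-a2 stood at 1468, 1742, 3210 and 2865 CPM, and in labeled-mutant libraries 1 to 4 at 2239, 2087, 2395 and 3604 CPM. Hbb-bs was at 1524, 1826, 3398 and 3012 CPM across WT and 2241, 2104, 2495 and 3615 CPM in labeled-mutant libraries. Both genes were low in WT libraries 1 and 2 and high in WT libraries 3 and 4 and in labeled-mutant library 4, and the groups overlapped. Hba-a1 was at 639, 705, 1359 and 1131 CPM across WT and 849, 793, 907 and 1265 CPM in labeled-mutant libraries. Hbb-bt was at 585, 681, 1289 and 1100 CPM against 864, 792, 979 and 1358 CPM. These less abundant copies had the same low and high libraries.

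The embryonic globins did not share 1 pattern. Hbb-y, the main embryonic beta-like gene here, was at 26.2, 38.1, 18.0 and 15.4 CPM across WT libraries 1 to 4 and at 28.1, 28.2, 32.8 and 35.9 CPM in labeled-mutant libraries. WT libraries 3 and 4, high in adult globin, were the lowest in Hbb-y, and WT library 2 was the highest. Labeled-mutant library 4, also high in adult globin, was instead the highest of its group in Hbb-y (35.9 CPM). Hba-x was at 9.52, 11.9, 9.72 and 8.73 CPM across WT and 10.4, 10.6, 13.2 and 17.5 CPM in labeled-mutant libraries, where library 4 stood highest. Hbb-bh1, the other embryonic beta-like gene, rested on 9 to 23 counts per library, with 0.416, 0.750, 0.998 and 0.921 CPM across WT and 0.808, 0.796, 0.932 and 0.823 CPM in labeled-mutant libraries. Like the adult globins it was lower in WT libraries 1 and 2 than in WT libraries 3 and 4, and all labeled-mutant values lay within the WT range.

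The red cell genes outside the globin clusters moved with the adult globins. Alas2 encodes the enzyme of the first, rate-limiting step of heme synthesis in red cells. It was at 35.7, 41.3, 87.0 and 76.4 CPM across WT and 62.0, 50.3, 58.1 and 91.5 CPM in labeled-mutant libraries. Slc4a1 encodes band 3, the chloride-bicarbonate exchanger that also anchors the red cell membrane skeleton. It was at 9.33, 11.5, 18.6 and 20.5 CPM across WT and 12.4, 11.5, 15.9 and 23.5 CPM in labeled-mutant libraries. Both were lowest in WT library 1 and highest in labeled-mutant library 4.

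**Figure D1:**
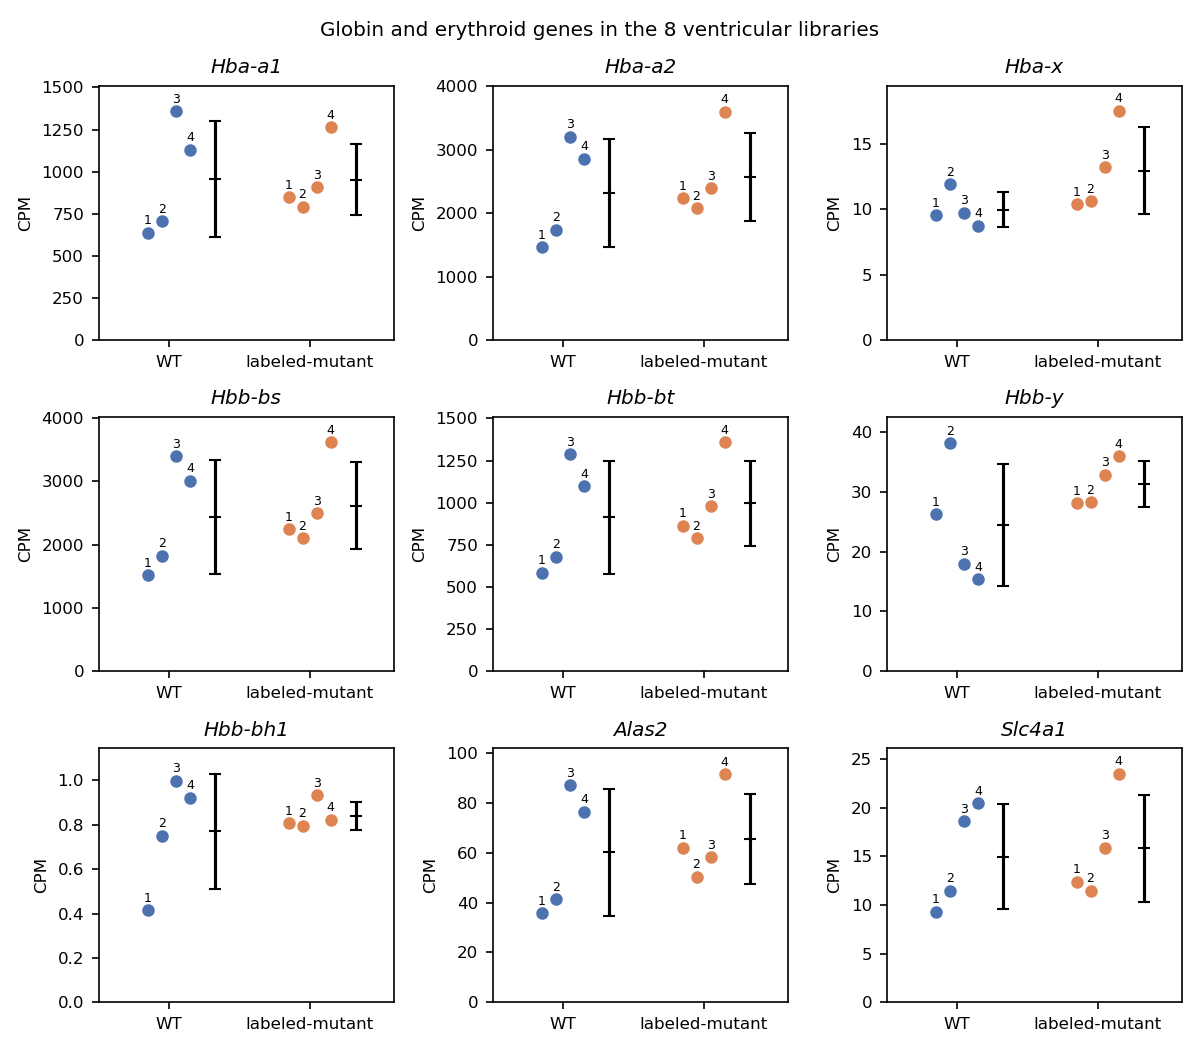
CPM of each member (linear axis from 0, a separate scale for each gene) in the 4 WT libraries (blue) and the 4 labeled-mutant libraries (orange). Points carry the library number and bars give the mean ± SD. Adult globins, Alas2 and Slc4a1 were high in WT libraries 3 and 4 and labeled-mutant library 4. Hbb-y was lowest in WT libraries 3 and 4, but in labeled-mutant library 4 it was the highest of its group.

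No member passed the test between the groups across all genes. By edgeR's quasi-likelihood test with Benjamini-Hochberg adjustment, 0 of the 9 members were called at a false discovery rate of 0.05, against 81 of 15388 genes tested (0.526%), a background at which a list of 9 would seldom hold a call. At an unadjusted p under 0.05 stood 1 member, Hba-x, against 10.5% of all genes. The groups overlapped for all 9 members, while they did not overlap for 6.05% of tested genes. The median log2 fold change of the members was 0.12, beside -0.001 over all tested genes.

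Hba-x had the smallest p of the members, with means of 9.97 ± 1.36 CPM (SD, n = 4) in WT and 12.9 ± 3.33 CPM in labeled-mutant libraries (log2 fold change 0.36, SE 0.154, edgeR adjusted p = 0.426). Hbb-y was at 24.4 ± 10.2 CPM across WT and 31.2 ± 3.79 CPM in labeled-mutant libraries (log2 fold change 0.35, SE 0.213, edgeR adjusted p = 0.612). Among the adult genes, the log2 fold change was 0.15 for Hba-a2 (95% interval -0.33 to 0.64), 0.10 for Hbb-bs (-0.39 to 0.59), 0.13 for Hbb-bt (-0.35 to 0.61) and -0.01 for Hba-a1 (-0.46 to 0.45). It was 0.12 for Hbb-bh1 (-0.50 to 0.73), 0.11 for Alas2 (-0.44 to 0.65) and 0.06 for Slc4a1 (-0.49 to 0.60). The sign of 7 of the log2 fold changes, all but those of Hba-x and Hbb-y, turned when single libraries were left out, most often WT library 1 or labeled-mutant library 4.

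**Figure D2:**
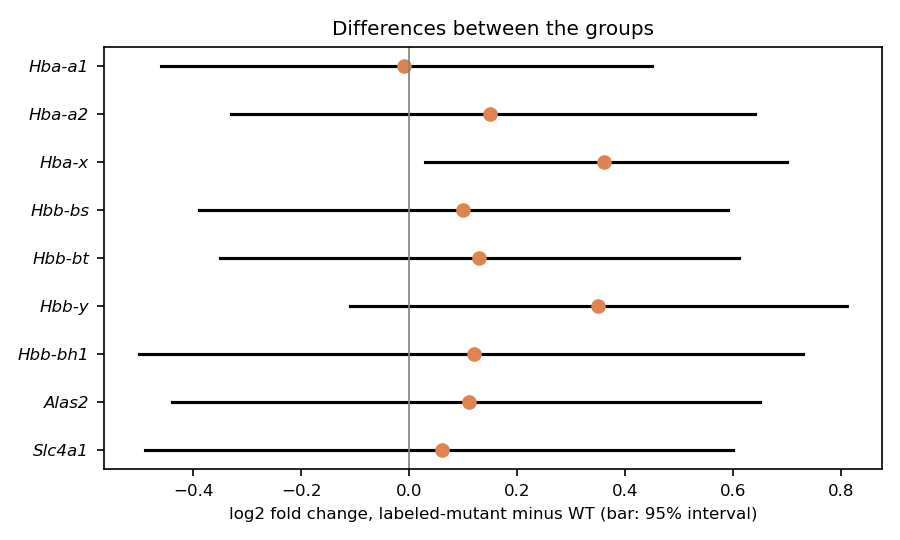
Log2 fold change of each member, labeled-mutant minus WT (x axis), with points for the edgeR estimate and bars for its 95% confidence interval. Only the bar of Hba-x, from 0.03 to 0.70, leaves out 0, before adjustment over genes.

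The spread between libraries was large. The highest library exceeded the lowest by 2.01-fold (Hba-x) to 2.56-fold (Alas2). Over the 8703 tested genes at or above the mean level of Slc4a1, that ratio had a median of 1.14 and a 95th percentile of 1.34. Hba-x (11.4 CPM) and Hbb-bh1 (0.806 CPM, on 9 to 23 counts) lay below that level, so this background does not match them. Over all tested genes the median ratio was 1.22. For the adult globins most of the spread was present within WT alone.

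The globin share of a library, the summed counts of the 7 globins as a percentage of all counts, served as the measure of blood content. It was 0.426, 0.504, 0.924 and 0.811% in WT libraries 1 to 4 and 0.620, 0.575, 0.682 and 1.00% in labeled-mutant libraries 1 to 4. The shares spanned 2.36-fold, with WT library 1 lowest and labeled-mutant library 4 highest. The mean was 0.666 ± 0.239% (SD, n = 4) in WT and 0.720 ± 0.194% in labeled-mutant libraries (exact permutation test, two-sided, p = 0.743, adjusted p = 0.943 over 8 library measures). In bulk RNA, more red cells and more globin RNA per red cell cannot be told apart.

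Embryonic globin made up a small and variable part of the globin RNA. Per length of transcript, Hba-x, Hbb-y and Hbb-bh1 together formed 0.785, 0.941, 0.281 and 0.278% of all globin in WT libraries 1 to 4 and 0.579, 0.625, 0.631 and 0.497% in labeled-mutant libraries 1 to 4. The WT libraries split into a high and a low pair, and all labeled-mutant values lay between those pairs. The means were 0.571 ± 0.343% in WT and 0.583 ± 0.0622% in labeled-mutant libraries, with SD over 4 libraries (exact permutation p = 0.943, adjusted p = 0.943). The split in WT was larger than counting error, since on counts alone the share was 1.01% in WT library 2 (95% Wilson interval 0.957 to 1.07%, 1150 of 113450 counts) and 0.310% in WT library 3 (0.287 to 0.334%, 662 of 213890 counts). These intervals cover counting error only.

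The embryonic share was higher among beta-like than among alpha-like globins in every library. Hbb-y and Hbb-bh1 formed 1.27, 1.56, 0.414 and 0.403% of beta-like globin in WT libraries, per length, and 0.943, 1.01, 0.983 and 0.749% in labeled-mutant libraries. Hba-x formed 0.332, 0.357, 0.157 and 0.160% of alpha-like globin in WT libraries and 0.245, 0.269, 0.293 and 0.262% in labeled-mutant libraries. Neither difference between the groups exceeded the spread of the libraries (exact permutation p = 0.943 and p = 0.743, adjusted p = 0.943 for both). Nearly all of the embryonic beta-like counts were Hbb-y, with 350 to 863 counts per library beside at most 23 of Hbb-bh1. The alpha to beta ratio, per length, was steady at 1.04 to 1.09 over the 8 libraries (adjusted p = 0.943, exact permutation test).

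Set against the adult globins, Alas2 and Slc4a1 varied little and the embryonic globins more. For every 1000 adult globin counts there were 8.34 to 10.01 counts of Alas2, a 1.20-fold span, and 1.99 to 2.53 counts of Slc4a1, a 1.27-fold span. Hbb-y spanned 4.06-fold, with 6.21, 7.68, 1.95 and 1.89 counts in WT and 4.53, 4.88, 4.83 and 3.64 counts in labeled-mutant libraries. Hba-x spanned 2.29-fold, from 1.05 counts in WT library 3 to 2.40 in WT library 2, and Hbb-bh1, on few counts, 1.81-fold. The embryonic genes also shifted against each other, with 0.313 counts of Hba-x for each count of Hbb-y in WT library 2 and 0.569 in WT library 4.

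**Figure D3:**
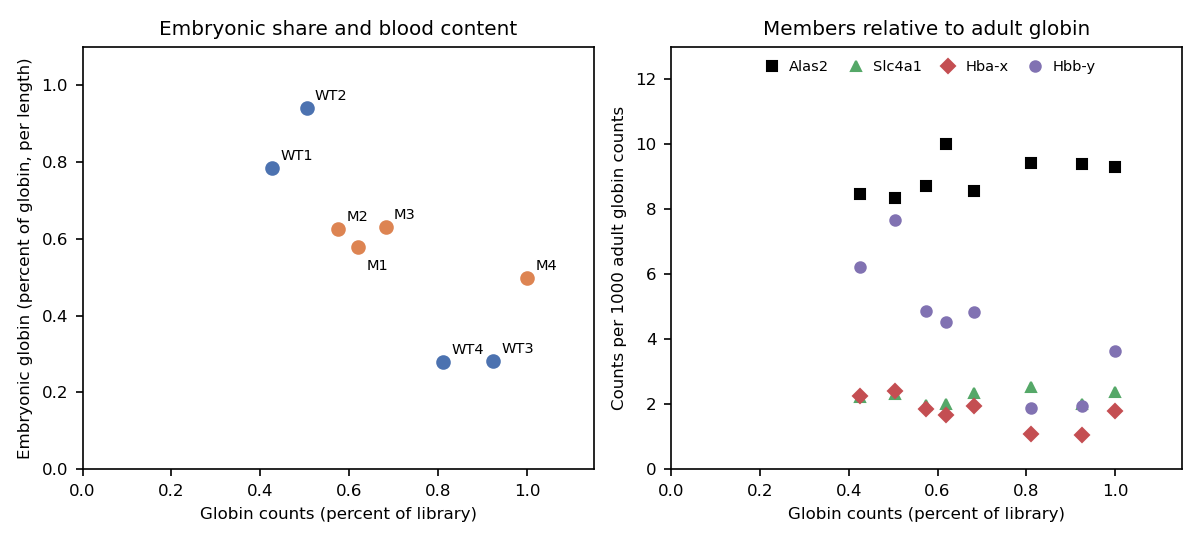
Left, embryonic globin as a percentage of all globin per length (y axis) against globin counts as a percentage of the library (x axis), with WT libraries in blue (WT1 to WT4) and labeled-mutant libraries in orange (M1 to M4). Right, counts of Alas2, Slc4a1, Hba-x and Hbb-y per 1000 adult globin counts in the same libraries; Alas2 stayed between 8.34 and 10.01 while Hbb-y ran from 1.89 to 7.68.

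Relations with the globin share were computed over all 8 libraries, as 6 relations with p-values adjusted over them. Alas2 CPM rose with the globin share (Pearson's r = 0.99, exact permutation p = 9.92e-05, adjusted p = 0.000595, Spearman's rho = 0.98, exact p = 0.000397). Slc4a1 did so too (r = 0.96, exact permutation p = 0.000694, adjusted p = 0.00208, rho = 0.95, exact p = 0.00114). Without the 2 libraries farthest from the median globin share, WT library 3 and labeled-mutant library 4, r was 0.97 for Alas2 and 0.96 for Slc4a1.

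The embryonic share of all globin fell as the globin share rose (r = -0.80, exact permutation p = 0.0194, adjusted p = 0.0388, rho = -0.81, exact p = 0.0218), and r was -0.88 without those 2 libraries. Both measures contain the adult globin counts, so they are not independent. Leaving out WT library 3 alone gave r = -0.74 with an exact permutation p of 0.0643. In a relation added after seeing the data, Hbb-y CPM against adult globin CPM, which shares no counts, gave r = -0.28 (exact permutation p = 0.491, rho = -0.14, exact p = 0.752, r = -0.58 without those 2 libraries). With 4 libraries in each group no relation within a group was computed.

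Other members of the globin family were also read. Mb, the muscle oxygen store myoglobin, averaged 759 CPM with a 1.24-fold span, and Cygb, cytoglobin, 12.7 CPM. Neither was called (log2 fold change 0.09 and -0.03), and Hbq1b, which lies in the alpha cluster, averaged 0.242 CPM, below the filter. Myoglobin was nearly level in libraries where the globins of blood spanned more than 2-fold.

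Of 63 other genes of the red cell pathway in 5 lists, 62 were found and 52 passed the filter. None was called in either direction by edgeR's quasi-likelihood test, beside 0.526% of all tested genes. An unadjusted p under 0.05 was found for 5 of the 52, beside 10.5% of all tested genes. The median log2 fold change was 0.04, beside -0.001 over all tested genes. Many of the listed genes are also active in other cells. The heme synthesis list (8 of 8 tested, median -0.02) was led by Alas1, the housekeeping form of the first enzyme, at 113 CPM, followed by the ferrochelatase gene Fech at 79.7 CPM and the decarboxylase gene Urod at 47.9 CPM. Alas1 spanned 104 to 118 CPM over the libraries, in contrast to Alas2.

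The iron and heme transport list (10 of 10 tested, median 0.07) was led by the transferrin receptor gene Tfrc at 178 CPM and Tmem14c, which encodes a mitochondrial membrane protein, at 84.7 CPM. The membrane and skeleton list (15 of 18 tested, median 0.06) was led by the tropomodulin gene Tmod1 at 418 CPM, the spectrin gene Sptb at 108 CPM and the protein 4.1 gene Epb41 at 106 CPM. The regulator list (9 of 12 tested, median -0.00) was led by the cofactor genes Ldb1 at 130 CPM and Zfpm1 at 42.6 CPM and by Bcl11a, a repressor of embryonic globin genes, at 30.5 CPM. The erythroid regulators Gata1 and Klf1 were near the floor, with at most 9 counts of Gata1 and 7 counts of Klf1 in any library. Tal1 and Lmo2 of the same list were not, at 10.6 and 14.4 CPM as means of the 8 libraries. The cytosol and maturation list (10 of 15 tested, median 0.07) was led by the peroxiredoxin gene Prdx2 at 409 CPM, Bnip3l at 144 CPM and Mkrn1 at 49.2 CPM.

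The smallest adjusted p in the 5 lists belonged to Ank1, named after its values were seen. It encodes an ankyrin that tethers band 3 to spectrin in red cells. Which cells gave its reads here was not tested. Ank1 was at 53.2, 55.1, 56.3 and 51.4 CPM across WT and 44.5, 49.9, 43.1 and 49.0 CPM in labeled-mutant libraries. The groups did not overlap, as was so for 6.05% of tested genes. The log2 fold change of Ank1 was -0.21 (SE 0.0497, edgeR adjusted p = 0.0892). It passed the threshold under 3 of the alternative settings (adjusted p = 0.00422 with no filter, 0.013 with edgeR's likelihood ratio test and 0.0474 with DESeq2). Those settings called 338, 242 and 182 genes over the whole table, against 81 in the main fit. Ank1 passed under no other setting, with an adjusted p of 0.0973 by limma voom. With single libraries left out, edgeR's adjusted p was 0.0616 to 0.268. Ank1 did not follow the globins across libraries (r = -0.07 on log2 CPM).

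The summed CPM of the 5 lists was 2679 ± 55.3 in WT and 2706 ± 16.9 in labeled-mutant libraries, with n = 4 in each (exact permutation p = 0.371, adjusted p = 0.943). It spanned only 1.04-fold, far less than the globins, and its relation with the globin share had an adjusted p of 0.0734 (r = 0.69, exact permutation p = 0.0489, rho = 0.52, exact p = 0.197, r = 0.69 without the 2 farthest libraries). Without WT library 1, r was 0.52.

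Across the 8 libraries, 26 of the tested genes (0.169%) had a Pearson's r above 0.9 between their log2 CPM and the log2 summed globin CPM, as a description without a test. Since the 7 globins form that sum, the r of 1.00 for Hba-a2, Hbb-bs and Hbb-bt and 0.99 for Hba-a1 are given by construction. Alas2 (0.99) and Slc4a1 (0.96) were among the 26, while Hbb-bh1 reached 0.76, Hba-x 0.33 and Hbb-y -0.33. Of the listed genes 5 were above 0.9, and those given here were named after their values were seen. Among these were the bisphosphoglycerate mutase gene Bpgm (r = 0.98), the ubiquitin-conjugating enzyme gene Ube2l6 (0.97), Trim10 (0.95) and Epb41 (0.95).

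Bpgm, whose product makes the 2,3-bisphosphoglycerate that lowers the oxygen affinity of hemoglobin, was at 29.6, 32.6, 42.6 and 42.6 CPM across WT and 38.2, 35.2, 38.3 and 46.8 CPM in labeled-mutant libraries, low and high in the same libraries as the adult globins. Its span was 1.58-fold, beside 2.17-fold for Trim10, 1.72-fold for Ube2l6 and 1.17-fold for Epb41. Epb41 was thus nearly level despite its high r. No gene of the heme synthesis, iron and heme transport or regulator lists had an r above 0.9.

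**Figure D4:**
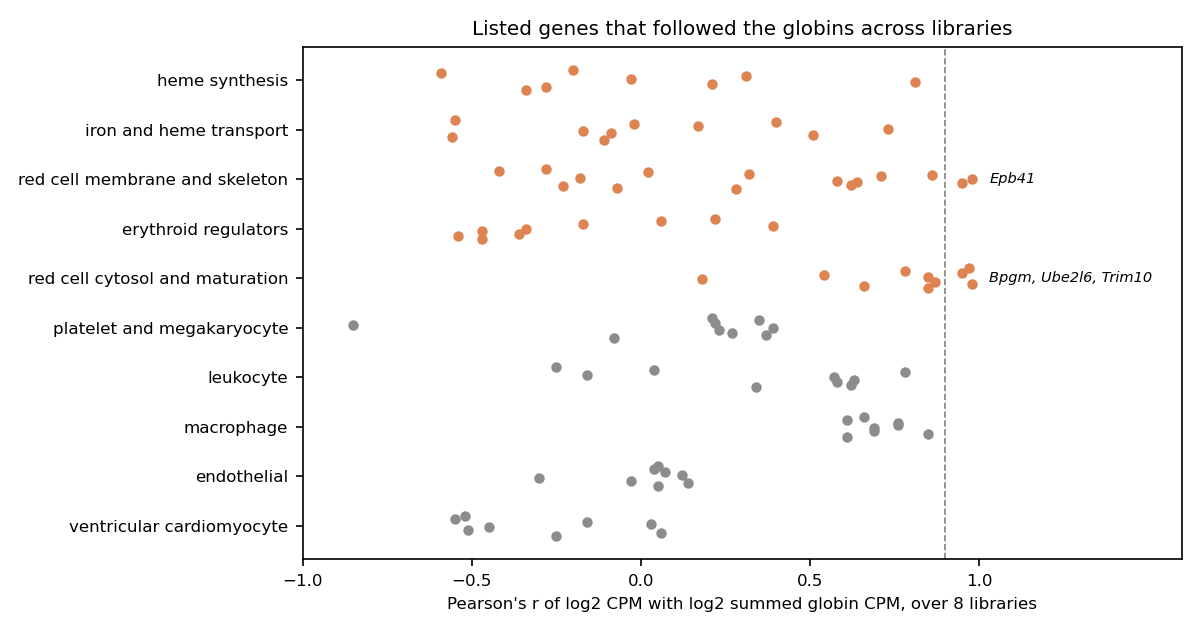
Pearson's r over the 8 libraries between log2 CPM of each tested list gene and log2 summed globin CPM, 1 point a gene and 1 line a list (orange, red cell lists; gray, other lists). The dashed line is at 0.9, and 4 of the 5 genes beyond it are named.

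Genes of other cell types are given beside the blood measures. The platelet list (9 of 11 tested, 0 called, median log2 fold change -0.03) summed to 13.9 to 17.6 CPM across WT and 15.1 to 16.6 CPM in labeled-mutant libraries, led by Itga2b, Pf4 and Clec1b. Its relation with the globin share was not significant (r = 0.46, exact permutation p = 0.255, adjusted p = 0.306, rho = 0.36, exact p = 0.389, r = 0.74 without the 2 farthest libraries). The leukocyte list (9 of 11 tested, 0 called, median 0.18) summed to 63.2 to 84.8 CPM across WT and 61.7 to 99.5 CPM in labeled-mutant libraries, led by Lyz2 at 38.7, Laptm5 at 19.4 and Coro1a at 8.19 CPM. The macrophage list (8 of 8 tested, 0 called, median 0.06) summed to 92.4 to 128 CPM and 103 to 146 CPM, led by Csf1r at 31.5, C1qb at 16.4 and Mrc1 at 15.7 CPM. With the summed globins, all 8 macrophage genes had an r between 0.61 and 0.85 on log2 CPM, so these genes too were lower in libraries with little globin, and no gene of the platelet or leukocyte lists passed 0.9. The part of these cells in the globin values was not tested.

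The hepatocyte list holds markers of the liver, where definitive red cells are made before birth. In it 2 of 10 genes were tested and 0 called (median 0.02), Trf averaged 18.8 CPM and Ahsg 3.09 CPM, the albumin gene Alb had at most 23 counts in a library, and Serpina1a and Fgb had fewer than 3 counts in every library. The endothelial list (8 of 8 tested, 0 called, median -0.07) summed to 1112 to 1134 CPM across WT and 1037 to 1104 CPM in labeled-mutant libraries, with Cdh5, whose promoter drives the Cre, at 286 CPM, Pecam1 at 187 CPM and Kdr at 170 CPM. The 2 ranges did not overlap. Of the 8 endothelial genes, 5 had an unadjusted p under 0.05 in edgeR's quasi-likelihood test, beside 10.5% of all genes. These 5 did not share 1 direction. The log2 fold change was -0.17 for Kdr and Tie1, -0.15 for Esam and -0.09 for Pecam1, but 0.18 for Emcn. Cdh5 was level (0.01). The smallest edgeR adjusted p was 0.0584, for Esam, followed by 0.0694 for Kdr. The part of the endothelial list in the globin values was not tested. The ventricular list (8 of 8 tested, 0 called, median 0.01) summed to 44782 to 48215 CPM and 44058 to 49221 CPM. The atrial list (8 of 8 tested, 0 called, median -0.18) summed to 1698 to 1913 CPM and 1681 to 1830 CPM, with Myl4 at 1316 CPM, Myl7 at 270 CPM and Dkk3 at 72.6 CPM. The part of cell makeup in the differences between libraries was not tested.

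The division of counts within the adult pairs was compared last. Hba-a1 took 30.3, 28.8, 29.7 and 28.3% of the counts of the alpha pair in WT libraries and 27.5, 27.5, 27.5 and 26.0% in labeled-mutant libraries. The groups did not overlap, with means of 29.3 ± 0.909% and 27.1 ± 0.767% (SD, n = 4). The exact permutation p was 0.0286, the smallest that 4 against 4 libraries can give, and the adjusted p over the 8 library measures was 0.229. With any library left out the smallest possible p is 0.0571, and the difference stayed between -2.50 and -1.79 percentage points. Hbb-bt took 26.7 to 28.2% of the beta pair (exact permutation p = 0.286, adjusted p = 0.943). Since 65.5% of Hba-a1 windows and 84.6% of Hba-a2 windows of read length are shared, this split rests on estimation from the remaining reads.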

How the data were processed

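Expected counts per Ensembl gene were deposited by the authors, made with RSEM 1.3.1 and cutadapt per the submitters' processing notes, on GRCm38 with Ensembl release 91 per the table's name. The aligner and whether counting used strand are not given in the sources used here. An expected count divides a read that matches several genes, and 18.1% of values were not whole. Counts were rounded, filtered by group (filterByExpr) and normalized by TMM. The quasi-likelihood test of edgeR 4.0.16 (glmQLFTest after glmQLFit, two-sided) was fitted in R 4.3.3 with group as the only term and Benjamini-Hochberg adjustment over 15388 genes. SE was derived from the F statistic. CPM used TMM-scaled totals. For likeness to the globins, log2 CPM had a prior count of 2. Symbols, positions and lengths came from GENCODE M21 (53274 of 53465 identifiers matched, and of the 142 listed genes only Ahsp was not), with the longest protein-coding transcript as length. Shares and sums per library were tested by exact permutation in scipy 1.17.1. Alternatives used other scalings and filters, edgeR's likelihood ratio test, DESeq2 1.42.0, limma voom (3.58.1), a replicate block, summed copies and left-out libraries. Named genes were the members, Nrg1, the 3 most abundant genes of each list and the 10 most globin-like genes outside the lists, and others are marked as named after their values were seen. Some genes that this rule picks are not reported here. The members and lists were chosen with earlier results of these data known. Library totals of 16761763 to 24144272 counts keep counting error small for the members except Hbb-bh1.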

Additional observations from a re-analysis of the deposited data

Results flagged for a closer look

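In 62 sets of 4 libraries, 3 held a library far from the others of its group, where chance gives about 3.1. Hba-a1 took 26.0% of the adult alpha pair in labeled-mutant library 4, against 27.5% in the other labeled-mutant libraries. The summed ventricular cardiomyocyte list was 44058 CPM in labeled-mutant library 4, against 48356 to 49221 CPM in the others, and this library also had the highest globin share (1.00%). The summed atrial list was 1830 CPM in labeled-mutant library 2, against 1681 to 1701 CPM in the others.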

How the results depend on the processing

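No member was called under any alternative run, by edgeR, DESeq2 or limma voom, with 0 to 2 members at an unadjusted p under 0.05. For Hba-a1 the log2 fold change turned positive with limma voom (0.04) and with the replicate block (0.04). Without single libraries it ran from -0.17 to 0.21. With near-identical copies summed, Hba-a1 and Hba-a2 together had a log2 fold change of 0.11. Leaving out single libraries gave -0.05 to 0.35 for Hba-a2, -0.10 to 0.30 for Hbb-bs, -0.06 to 0.34 for Hbb-bt, -0.08 to 0.27 for Hbb-bh1, -0.09 to 0.34 for Alas2 and -0.18 to 0.25 for Slc4a1. Hba-x (0.19 to 0.46) and Hbb-y (0.18 to 0.65) kept their direction. Labeled-mutant minus WT, the globin share then differed by -0.0406 to 0.140 percentage points, and the embryonic share by -0.160 to 0.225 (beta-like), -0.0157 to 0.0511 (alpha-like) and -0.0855 to 0.135 (all globin). The alpha to beta ratio differed by -5.19e-05 to 0.0158, and by -0.000447 on counts without length. Correlation with the globin share ran from -0.91 to -0.74 for the embryonic share and from 0.52 to 0.79 for the red cell lists.

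Genes called over the whole table numbered 338 with no filter, 242 with the likelihood ratio test and 182 with DESeq2, each with 1 gene of the red cell lists, Ank1. With single libraries left out they numbered from 11, without labeled-mutant library 3, to 142, without labeled-mutant library 4. The replicate block gave 93 calls, 59 of them among the 81, and no member or red cell list gene. Same-numbered libraries of the 2 groups correlated at 0.0447 to 0.121 in their deviations from the group means, and others at -0.0877 to 0.0195, a hint from the data and not from the design, so they were not taken as pairs. Union exon lengths and the leave-one-out correlations were added after seeing the data. The cause of these changes was not tested. Counts of 9 to 23 limit Hbb-bh1.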

Other observations

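Outside every list, the 10 genes most like the globins across the 8 libraries included Tent5c (r = 0.98), Gm11335 (0.96), D1Ertd622e, Maml2 and Actg2 (0.92 each) and Gm26540, Cd33, Daam2 and Ctse (0.91 each). Tent5c, which encodes a poly(A) polymerase, was at 11.0 to 21.4 CPM. None passed edgeR's quasi-likelihood test, with adjusted p-values of 0.808 to 0.992. These r values are descriptions over the same 8 libraries as the globin sum.

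Xist, the RNA that coats the inactive X chromosome, was at 0.176 CPM in WT library 4 and at 103 to 327 CPM in the other 7 libraries. The summed Y-linked genes were at 42.8 to 171 CPM in all 8. Labeled-mutant library 4 and WT libraries 3 and 4, the highest in globin, had 120, 122 and 171 CPM of Y-linked genes. The others had 42.8 to 115 CPM. The 115 CPM was that of WT library 1, the lowest in globin (0.426%), so the 2 measures did not run together in every library. The part of embryo sex in the globin values was not tested.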
